A study of Homo sapiens with 5 samples.

Results

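SPRYD4, JAKMIP2-AS1, C6orf15, BLOC1S1 and DPM3 are 5 of the 25343 genes counted by mRNA sequencing of SW620 cells. SW620 is a line from a human colon carcinoma, and these cells carry a tetracycline-inducible short hairpin RNA against the mucin gene MUC1 (genotype tet-MUC1shRNA). The 5 libraries fall into 3 named neg, with replicate numbers 1, 2 and 3, and 2 named pos, with numbers 1 and 3. Treatment was vehicle or doxycycline, the inducer of such hairpins, but the labels do not tie either treatment to a name, and neg and pos are used as given. All 5 libraries share the line and the hairpin construct. Nothing in the labels ties the replicates to separate experiments, so p-values measure the spread between these libraries, which may be technical. All 5 genes passed the filter on low counts. SPRYD4, JAKMIP2-AS1 and C6orf15 were picked because they were much higher in both pos libraries, and the small organelle genes BLOC1S1 and DPM3 were added for contrast. The pos against neg values below are therefore a description of genes chosen on those values, with no test.

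SPRYD4 encodes a protein with a SPRY domain, a fold that other proteins use to bind partners. JAKMIP2-AS1 is a long non-coding RNA read from the strand opposite JAKMIP2, a gene for a coiled-coil protein that binds microtubules. C6orf15, also called STG, lies in the psoriasis susceptibility region of the major histocompatibility complex. BLOC1S1 encodes a subunit that is shared by BLOC-1, which helps to build lysosome-related organelles, and BORC, which positions lysosomes. Its mRNA is also a classic substrate of the endoplasmic reticulum (ER) stress sensor IRE1, which can cut selected mRNAs. DPM3 encodes the small membrane subunit that holds the catalytic subunit DPM1 of dolichol-phosphate-mannose synthase at the ER, where the mannose donor for N-glycans, GPI anchors and protein mannosylation is made.

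The genes differ widely in transcript length, which matters because the ratios of pos to neg were higher for short transcripts. The canonical transcript in GENCODE 44 is 10769 nt long for SPRYD4, with 2 exons and a coding part of 621 nt. It is 844 nt for JAKMIP2-AS1 (7 exons), 1156 nt for C6orf15 (2 exons), 562 nt for BLOC1S1 (4 exons) and 396 nt for DPM3 (2 exons). SPRYD4 was longer than 96.9% of tested genes with a known length. The other 4 belonged to the shortest quintile of tested genes, which ended at 1737 nt, and the median over all tested genes was 3241 nt. The genes were grouped under the name "rises that are not short-transcript effects". By annotated length SPRYD4 is long and JAKMIP2-AS1 and C6orf15 are short, and how each stands against the length trend is given below. JAKMIP2-AS1 has 7 annotated transcripts of 656 to 2990 nt, and the counts do not say which were present.

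SPRYD4 lies on chromosome 12 from 56468578 to 56479708 on the plus strand and BLOC1S1 on the same chromosome and strand from 55716038 to 55720087 (GRCh38, GENCODE 44). JAKMIP2-AS1 spans 147559994 to 147694827 of chromosome 5 (plus strand). C6orf15 spans 31111223 to 31112575 of chromosome 6 (minus strand). DPM3 spans 155139891 to 155140595 of chromosome 1 (minus strand) and is 45229 bases from MUC1. The bases just before the start site are shown for 3 of the genes because they differ in kind, from rich to poor in CpG dinucleotides. The sequences are from RefSeq (GRCh38.p14), which gave promoters for 4 of the 5 genes, all but JAKMIP2-AS1. They are written 5′ to 3′ on the gene's strand, and capitals mark matches to the motifs named after them. The spans are chr12:56468328-56468577 (plus strand) for SPRYD4, chr12:55715796-55716037 (plus strand) for BLOC1S1 and chr6:31112576-31112825 (minus strand) for C6orf15.
SPRYD4: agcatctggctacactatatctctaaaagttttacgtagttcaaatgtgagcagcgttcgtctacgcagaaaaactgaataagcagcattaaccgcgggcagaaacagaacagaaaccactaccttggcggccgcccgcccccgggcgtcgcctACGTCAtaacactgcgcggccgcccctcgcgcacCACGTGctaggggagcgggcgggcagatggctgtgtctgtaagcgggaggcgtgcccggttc
BLOC1S1: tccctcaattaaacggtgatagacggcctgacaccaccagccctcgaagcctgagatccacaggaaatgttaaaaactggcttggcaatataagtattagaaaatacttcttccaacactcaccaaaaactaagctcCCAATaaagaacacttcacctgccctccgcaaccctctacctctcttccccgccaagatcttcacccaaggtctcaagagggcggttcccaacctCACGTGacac
C6orf15: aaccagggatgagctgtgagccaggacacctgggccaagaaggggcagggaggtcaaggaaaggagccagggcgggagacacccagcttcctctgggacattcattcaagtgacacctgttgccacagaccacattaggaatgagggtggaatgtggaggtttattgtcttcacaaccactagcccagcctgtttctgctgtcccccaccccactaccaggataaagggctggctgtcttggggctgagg

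The SPRYD4 window of 250 bases had a GC content of 58.4% with 24 CpG dinucleotides, and the C6orf15 window of 250 bases 56.8% with 1. The BLOC1S1 window of 242 bases had 48.8% and 7, and the DPM3 window of 186 bases 63.4% and 11. Over 27305 RefSeq promoters the 250 bases before the start had a median GC content of 58.0% and a median of 11 CpG dinucleotides. The 4 motifs searched were chosen with these sequences in view and read on both strands. The E-box CACGTG was found in SPRYD4 and BLOC1S1 and is present in 6.49% of all promoters. The TGACGT core of cAMP response elements was found in SPRYD4 (7.42% of promoters) and the CCAAT box, CCAAT, in BLOC1S1 (33.0%). The matches do not overlap, and the TATA box TATAAA (11.1%) was in none of the 4 windows. These windows share no motif beyond the E-box in that pair, and a match is only a match of letters.

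Some facts of the libraries bear on every value. Totals ran from 10888704 to 14137678 counts, at which 3 counts equal 0.189 to 0.316 CPM (counts as a share of the library, scaled between libraries by TMM). The pos pair correlated at Pearson r = 0.912 in log2 CPM and the neg pairs at 0.983 to 0.993, over genes, which do not count as replicates. Of 13604 genes tested, 689 (5.06%) were higher and 562 (4.13%) lower in pos, 9.20% in all, by edgeR's two-sided quasi-likelihood test with a Benjamini-Hochberg threshold of 0.05. With library size as the only scaling the median log2 fold change of all genes moved from -0.05 to -0.41 and the split became 148 higher and 458 lower. Without neg replicate 1, 2 or 3 0 genes passed in edgeR each time. Unadjusted p fell under 0.05 for 3033, 2510 and 2607 genes, and DESeq2 called 1310, 952 and 848. MUC1, the target of the hairpin, had 176, 252 and 218 reads in neg and 27 and 13 in pos. Of 11 colon epithelial markers checked all had reads, CDX1 in 1 library only. The summed level of these 11 was 6070 to 7890 CPM in neg and 7910 to 16400 CPM in pos, with KRT8 alone at 2160 CPM or more in every library. Within it CDX2 was higher in pos (61.4 and 124 CPM against 21.7 or less) and CDH1 lower (219 and 108 CPM against 513 to 531). KRT20, CDH17 and LGALS4 were at 1.95 CPM or less, with 0 for KRT20 and LGALS4 in pos replicate 1 and for CDH17 in pos replicate 3. TP63, which defines squamous cells, was at 0 CPM in all libraries but pos replicate 3, where it was at 0.527. Among leukocyte markers PTPRC and CD3E had no read, while CD68 was at 36.0 to 53.1 CPM and LYZ at 4.90 CPM or more in every library. The summed level of 15 squamous markers was 27.4 to 38.6 CPM in neg and 29.5 to 70.3 CPM in pos. Most of it was KRT10, at 24.0 to 36.0 CPM in neg and 29.5 and 67.7 CPM in pos. KRT5 and KRT14 were at 0.699 CPM or less in neg and 0 in pos. The sum of 9 neuronal markers was 295 to 315 CPM in neg and 233 to 287 CPM in pos. Within it SYT1 was lower in pos (111 and 45.3 CPM against 176 to 219) and TUBB3 higher (95.3 and 204 CPM against 72.7 to 93.9). The part of other cell types in the values below was not tested. In bulk RNA, more cells with a transcript and more transcript per cell cannot be told apart.

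SPRYD4 was several-fold higher in both pos libraries than in neg. It had 99, 87 and 75 reads in neg replicates 1, 2 and 3 and 437 and 528 in pos replicates 1 and 3, or 6.92, 5.47 and 6.03 CPM against 35.4 and 55.7 CPM. The groups did not overlap, and the lower pos library was 5.11 times the highest neg library. The group values were 6.14 ± 0.733 CPM (SD, n = 3) and 45.5 ± 14.4 CPM (SD, n = 2), a log2 fold change of 2.89 (SE 0.27). This was the 7th largest of all 13604 genes tested and the largest among the 3436 with a transcript of at least 5000 nt. Of those long genes 32, or 0.931%, were called higher in pos.

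JAKMIP2-AS1 had nearly the same fold change on fewer reads. Reads numbered 24, 35 and 26 in the neg libraries and 166 and 153 in pos replicates 1 and 3. These were 1.68, 2.20 and 2.09 CPM against 13.4 and 16.1 CPM. Both pos libraries stood close together and well above all neg libraries, with 1.20 times as much in pos replicate 3 as in pos replicate 1, the smallest such ratio of the 5 genes. The group values were 1.99 ± 0.275 and 14.8 ± 1.91 CPM (SD, n = 3 and 2, as below), at a log2 fold change of 2.89 (SE 0.26).

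C6orf15 had 20, 35 and 19 reads in neg and 89 and 148 in pos replicates 1 and 3. Its CPM were 1.40, 2.20 and 1.53 in neg and 7.20 and 15.6 in pos. The groups again did not overlap, but the pos libraries differed 2.17-fold, so that its mean of 11.4 ± 5.94 CPM in pos against 1.71 ± 0.431 CPM in neg (log2 fold change 2.72, SE 0.42) carries a wide error.

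The contrast genes had the widest spread within pos. BLOC1S1 had 145, 149 and 87 reads in neg and 369 and 1133 in pos, or 10.1, 9.37 and 6.99 CPM against 29.9 and 119 CPM. DPM3 had 127, 110 and 72 reads in neg and 261 and 683 in pos, or 8.88, 6.92 and 5.79 CPM against 21.1 and 72.0 CPM. Both were above every neg library in both pos libraries, yet pos replicate 3 held 4.0 times as much BLOC1S1 and 3.41 times as much DPM3 as pos replicate 1. BLOC1S1 averaged 8.83 ± 1.64 CPM in neg and 74.7 ± 63.4 CPM in pos, a log2 fold change of 3.07 (SE 0.57). DPM3 averaged 7.19 ± 1.57 and 46.6 ± 36.0 CPM, a log2 fold change of 2.69 (SE 0.52). Without pos replicate 3 they were 1.73 and 1.52, while SPRYD4 was at 2.5.

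**Figure D1:**
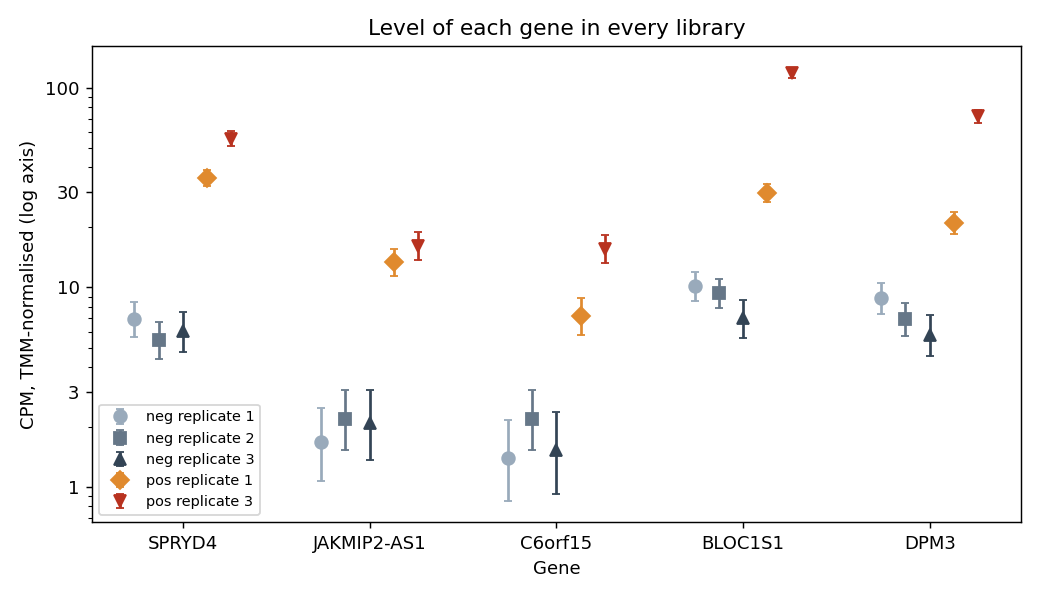
TMM-normalised CPM on a log axis for each gene in the 5 libraries; bars are 95% Poisson intervals (exact) for counting error alone. Both pos libraries lie above all neg libraries for every gene, close together for JAKMIP2-AS1 (13.4 and 16.1 CPM) and far apart for BLOC1S1 (29.9 and 119 CPM).

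Counting error did not join the groups in any of the 5 genes. The closest case was DPM3, where the exact Poisson 95% interval of pos replicate 1 began at 18.6 CPM and the highest neg interval ended at 10.6 CPM. For C6orf15 the same bounds were 5.78 and 3.06 CPM. All 5 genes passed the adjusted threshold and had higher, non-overlapping CPM in pos, which held for 5.06% and 26.7% of tested genes. Since the genes were picked on this contrast, nothing is read from that.

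Levels of different genes were compared per kilobase of canonical transcript. In neg, DPM3 was at 18.2 ± 3.95 and BLOC1S1 at 15.7 ± 2.92 CPM per kb, and the libraries of these neighbours in the order overlapped. At its canonical 844 nt JAKMIP2-AS1 was at 2.36 ± 0.326, with C6orf15 at 1.48 ± 0.373 and SPRYD4 at 0.570 ± 0.0681 CPM per kb. The order of JAKMIP2-AS1 and C6orf15 is not fixed, since annotated JAKMIP2-AS1 transcripts reach 2990 nt and a longer one would put it lower. In pos the values were 133 ± 113 for BLOC1S1, 118 ± 90.9 for DPM3, 17.5 ± 2.26 for JAKMIP2-AS1, 9.86 ± 5.14 for C6orf15 and 4.23 ± 1.33 CPM per kb for SPRYD4. The first and second of these did not differ beyond their spread. The place of SPRYD4 at the bottom rests on the length of 10769 nt, most of it non-coding.

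Transcript length moved with the ratio of each pos library to neg. A lowess curve of the log2 ratio to the neg mean against log2 length was fitted in each library over the 13258 tested genes with a length. In the shortest quintile of transcripts the median log2 ratio was 0.37 in pos replicate 1 and 1.19 in pos replicate 3, and in the longest quintile -0.26 and -1.25. Genes called higher made up 15.2% of the shortest quintile and 0.867% of the longest. Smaller trends were present among the neg libraries. At the length of BLOC1S1 the curve was at 0.17 in neg replicate 1 and -0.16 in neg replicate 3, against 0.64 and 1.85 in pos replicates 1 and 3. The cause of the trends was not tested.

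SPRYD4 ran against the trend of the pos libraries. At its length the curve was at -0.30 in pos replicate 1 and -1.50 in pos replicate 3, whereas SPRYD4 was at 2.5 and 3.16. It therefore lay 2.81 and 4.65 log2 units above the curve, farther than 99.96% and 99.99% of tested genes with a length. It was also 0.65 log2 units higher in pos replicate 3 than in pos replicate 1, where the curve fell by 1.19.

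JAKMIP2-AS1 lay above a curve that was itself raised. The curve at 844 nt was at 0.51 and 1.51, the gene at 2.67 and 2.93, and the gap 2.16 and 1.42 log2 units in pos replicates 1 and 3. Between the pos libraries the gene gained 0.26 log2 units and the curve 1.0. Over its annotated transcripts the gap ran from 2.08 at 656 nt to 2.66 at 2990 nt in pos replicate 1, and from 1.21 to 2.97 in pos replicate 3. C6orf15 was at 2.01 and 3.10 where the curve at its length was at 0.39 and 1.19, leaving 1.62 and 1.92 log2 units.

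For the contrast genes the curve itself came to 0.64 and 1.85 at the length of BLOC1S1 and 0.67 and 1.94 at that of DPM3. BLOC1S1, at 1.76 and 3.75, was 1.11 and 1.90 above it, and DPM3, at 1.56 and 3.32, was 0.88 and 1.38 above it. DPM3 had the smallest gap of the 5 in pos replicate 1, exceeding that of 94.9% of genes, and JAKMIP2-AS1 and DPM3 had the smallest in pos replicate 3 (95.5% and 95.1% of genes lay below them). All 5 genes were above the curve in both pos libraries. With the curve removed as an offset in edgeR, called length correction below, the log2 fold changes were 4.0 for SPRYD4, 1.91 for JAKMIP2-AS1, 1.85 for C6orf15, 1.58 for BLOC1S1 and 1.17 for DPM3.

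**Figure D2:**
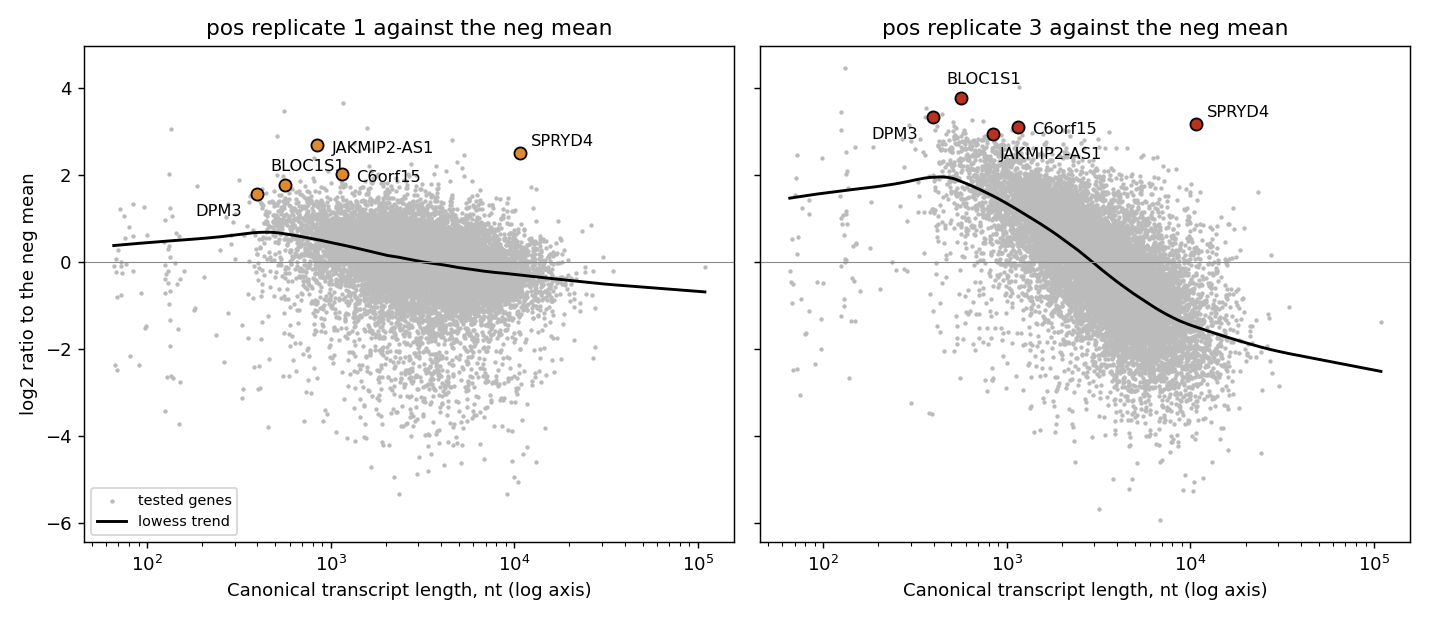
Log2 ratio of each pos library to the neg mean against canonical transcript length (log axis) for tested genes (grey), with the lowess curve (black) and the 5 genes named. SPRYD4 stands alone at the right, 2.81 and 4.65 log2 units above the curve, and the other 4 lie at the short end where the curve is raised.

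**Figure D3:**
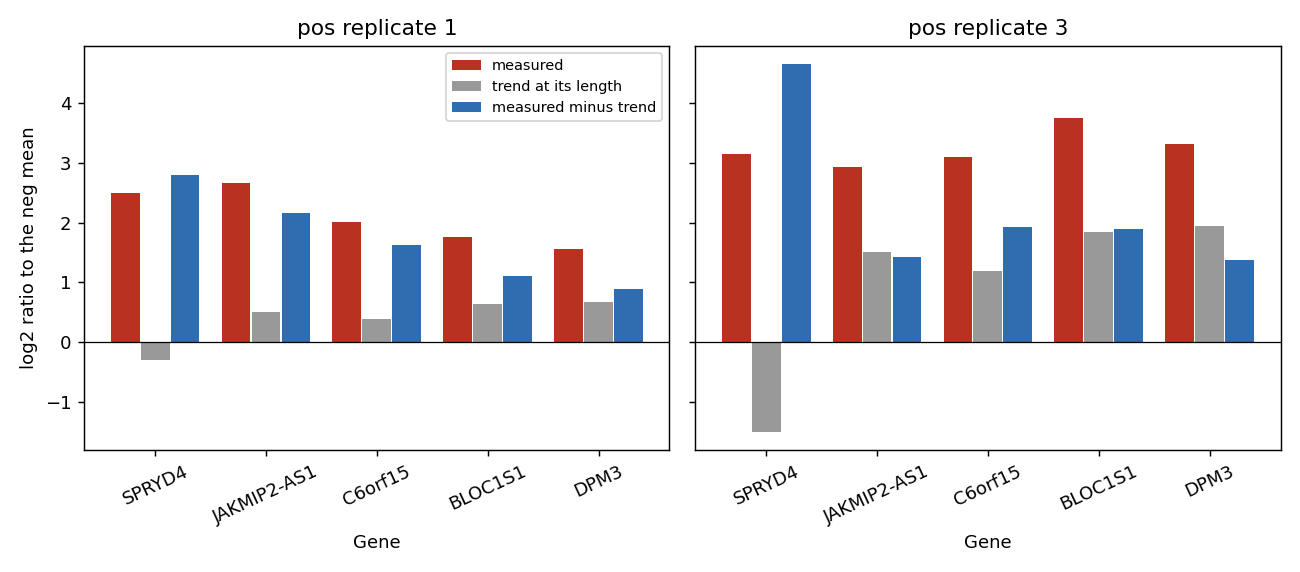
For each gene the measured log2 ratio to the neg mean (red), the lowess value at its length (grey) and their difference (blue), in pos replicates 1 and 3. The grey bar is negative for SPRYD4 (-0.30 and -1.50) and positive for the other 4, and every blue bar is above 0.

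The standing of SPRYD4 depends on which length its reads came from. The sources used here do not name the annotation behind the deposited counts, and all but 621 of the 10769 nt are untranslated. Taking the coding length alone, the curve was at 0.61 and 1.77 in pos replicates 1 and 3 and the gap shrank to 1.89 and 1.38 log2 units, with a log2 fold change of 1.68 once the trend was removed. On that length SPRYD4 would stand beside C6orf15 (1.85) and BLOC1S1 (1.58). The measures are unlike, since no annotated SPRYD4 transcript is that short and the other genes were kept at full transcript length. Which length was present in these cells was not tested.

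Overlaps with other genes limit some of these counts. The last part of SPRYD4 overlaps GLS2, which encodes a glutaminase, on the opposite strand, with 1940 exonic bases in common between the canonical transcripts. GLS2 had 781, 760 and 501 reads in neg and 790 and 820 in pos. It was at 47.6 ± 7.17 and 75.2 ± 15.9 CPM (log2 fold change 0.66, SE 0.23, edgeR adjusted p = 0.110). The library kit keeps strand, but the strand setting of the counting is not given, so reads of the pair may be shared. JAKMIP2-AS1 overlaps JAKMIP2 over 109390 bases but only 8 exonic bases of the canonical transcripts. JAKMIP2 had 12, 12 and 4 reads in neg and 19 and 7 in pos (log2 fold change 0.83, SE 0.59, edgeR adjusted p = 0.339). BLOC1S1 shares 357 of its 562 exonic bases on the same strand with another annotated protein-coding gene, ENSG00000258311. That gene spans 55716036 to 55724703, nearly the span of the read-through row BLOC1S1-RDH5 (55716034 to 55724742), which had 0 reads in all libraries. How shared reads were counted is not given, so the BLOC1S1 count may include reads of the read-through or lack shared reads.

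The genes on either side were read to see whether a whole locus moved. Of 20 neighbouring rows, 2 on each side of each gene, 14 were tested and 1 was called, against 9.20% of all genes. That gene was CD63, a tetraspanin of late endosomes and lysosomes 3832 bases from BLOC1S1, which rose from 422 ± 25.5 to 1294 ± 681 CPM (log2 fold change 1.62, SE 0.34, edgeR adjusted p = 0.0455). After length correction 3 of the 14 were called, all higher, against 7.13% of all genes. These were CD63 at 0.64 (edgeR adjusted p = 0.0336), DPYSL3 beside JAKMIP2-AS1 at 1.12 (edgeR adjusted p = 0.0156) and TIMELESS beside SPRYD4 at 0.81 (edgeR adjusted p = 0.0299). The values that follow are without that correction. Beside DPM3, the ephrin gene EFNA1 was at 1.21 (SE 0.38), the sugar transporter gene SLC50A1 at 0.60 (SE 0.38), KRTCAP2, for an oligosaccharyltransferase subunit, at 1.34 (SE 0.49) and TRIM46 at -0.08 (SE 0.57), with edgeR adjusted p of 0.0874, 0.292, 0.117 and 0.930. Beside C6orf15, MUC22 and HCG22 had 0 reads in all libraries, and PSORS1C1, 2225 bases away, had 21, 31 and 26 reads in neg and 20 and 32 in pos. Beside SPRYD4 and GLS2, TIMELESS was at 0.34 (SE 0.19), RBMS2 at -0.45 (SE 0.27), and MIP had at most 7 reads. Near JAKMIP2-AS1, DPYSL3 was at 0.60 (SE 0.19, edgeR adjusted p = 0.0870), and STK32A and SPINK1 had at most 9 reads. Around BLOC1S1, ITGA7 was at -0.29 (SE 0.18) and RDH5 at 1.36 (SE 0.44, edgeR adjusted p = 0.0937).

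The partners of BLOC1S1 were read beside it. Of 12 tested BLOC-1 and BORC subunits 2 were called higher, BLOC1S1 itself and SNAPIN, and 0 lower, against 5.06% and 4.13% of all genes. SNAPIN, a subunit of both complexes, rose from 26.1 to 71.4 CPM in group means (log2 fold change 1.45, edgeR adjusted p = 0.0457), but missed the threshold after length correction (0.50, edgeR adjusted p = 0.0636). The median log2 fold change of the 11 without BLOC1S1 was 0.35, against -0.05 over all genes. After length correction the list median went from 0.36 to 0.10 and BLOC1S1 alone was called, against 13.8% of all genes. The BORC gene BORCS8 was at 1.77 on 10 to 67 reads a library (edgeR adjusted p = 0.122), KXD1 at 0.55, BORCS7 at 0.44, BORCS5 at 0.37, DTNBP1 at 0.35, BLOC1S2 at 0.34, BLOC1S4 at 0.33, BORCS6 at -0.10, BLOC1S6 at -0.20 and BLOC1S3 at -0.21. KXD1, DTNBP1 and BLOC1S4 changed sign after length correction, to -0.21, -0.36 and -0.28. The BLOC1S5 row had 0 reads in all libraries, and with no counting settings given, absence of the transcript is not read from that.

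The other subunits of the DPM3 enzyme did not pass. The catalytic DPM1 had 101 CPM in neg and 102 in pos (log2 fold change 0.01, edgeR adjusted p = 0.962), and DPM2, which stabilises the complex, 37.0 and 60.7 CPM (0.71, edgeR adjusted p = 0.327). All 3 subunits have short canonical transcripts, 1054 nt for DPM1 and 912 nt for DPM2, and only DPM3 was above the length curve in both pos libraries, DPM1 being 0.32 and 1.36 log2 units below it. Of 23 tested genes that supply dolichol or make and use dolichol-phosphate-mannose, 2 were called higher and 0 lower, against 5.06% and 4.13% of all genes, at a median of 0.04. One of the pair was DPM3 itself and the other MPDU1, needed for the use of the mannose donor, which rose from 740, 756 and 456 reads in neg to 1277 and 1700 in pos (log2 fold change 1.64, edgeR adjusted p = 0.0386). After length correction 3 of the 23 were called higher and 1 lower, against 7.13% and 6.63% of all genes. Besides DPM3 these were MPDU1 at 0.97 (edgeR adjusted p = 0.0169) and the mannosyltransferase genes PIGV (1.15, edgeR adjusted p = 0.0290) and DPY19L3 (-0.94, edgeR adjusted p = 0.0312).

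**Figure D4:**
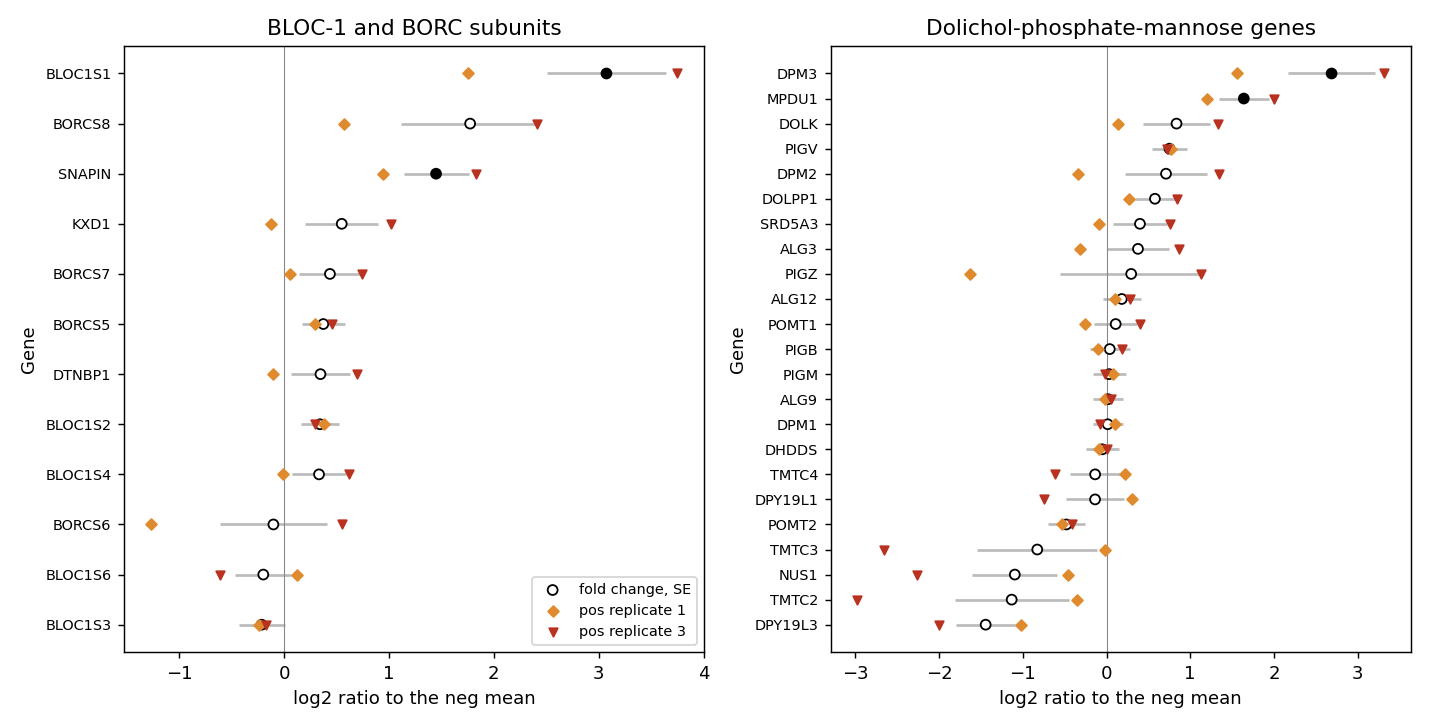
Log2 fold change with its SE (circles, filled where the edgeR adjusted p was under 0.05) and the log2 ratio of each pos library to the neg mean, for 12 tested BLOC-1 and BORC genes (left) and 23 dolichol-phosphate-mannose genes (right). BLOC1S1 (3.07) and DPM3 (2.69) top their lists, with SNAPIN and MPDU1 the other filled circles.

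ER stress genes listed under the IRE1 branch were read beside BLOC1S1, whose mRNA IRE1 can cut. The list includes general ER chaperone genes that are not specific to that branch. ERN1, which encodes IRE1, fell from 608, 704 and 545 reads in neg to 108 and 22 in pos (log2 fold change -2.96, edgeR adjusted p = 0.0390). Of the 12 listed genes 6 fell and 0 rose, at a median of -1.70, against 4.13% and 5.06% of all genes. Besides ERN1 the ER chaperone gene HSPA5 was at -1.83, HERPUD1 of ER-associated degradation at -1.92, the chaperone gene HYOU1 at -1.78 and the co-chaperone genes DNAJC3 and DNAJB9 at -1.97 and -1.63. The transcription factor gene XBP1, whose mRNA IRE1 splices, was at -0.61 (edgeR adjusted p = 0.0941), SEC24D at -1.84, EDEM1 at -1.60, PDIA6 at -0.85, SDF2L1 at -0.44 and SEC61B at 0.42, none past the threshold. After length correction all 12 were called lower, against 6.63% of all genes, with SEC61B turning to -0.91 (edgeR adjusted p = 0.0183), SDF2L1 at -1.65 (0.0188) and XBP1 at -1.02 (0.0236). The fall of ER stress genes in these libraries was known when the list was written, so it is no independent evidence.

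Other mRNAs reported to be cut by IRE1 did not share one direction. Of 8 tested, BLOC1S1 and CD59 were higher and TNFRSF10B was lower, against 5.06% and 4.13% of all genes. Without BLOC1S1, a member chosen beforehand, 1 of 7 was higher. CD59, the complement inhibitor, rose from 671, 707 and 531 reads in neg to 1359 and 1213 in pos (log2 fold change 1.41, edgeR adjusted p = 0.0316, and 2.25 after length correction, on a transcript of 7563 nt). TNFRSF10B, a death receptor, was at -1.45 (edgeR adjusted p = 0.0324). COL6A1 was at -0.45, PDGFRB at -0.82, HGSNAT at -0.34, TGOLN2 at -0.05 and PER1 at -0.58, none past the threshold, and SCARA3 and SPARC had too few reads to be tested. The part of mRNA cutting in the BLOC1S1 values was not tested.

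For the relatives of the picked genes the share called over all genes, 9.20%, or 13.8% after length correction, stands as the background. Of 25 tested SPRY domain genes SPRYD4 and the antibody receptor gene TRIM21 were higher and the ubiquitin ligase gene TRIM25 lower, at a median of -0.12. TRIM21 was at 0.95 (edgeR adjusted p = 0.0402, and 0.59 with adjusted p = 0.0771 after length correction) and TRIM25 at -1.73 (edgeR adjusted p = 0.0270). The namesakes SPRYD3 and SPRYD7 were at -0.62 and -0.01. In the JAKMIP family JAKMIP3 fell from 28, 41 and 36 reads to 5 in each pos library (log2 fold change -2.40, edgeR adjusted p = 0.0390, and -1.81 with adjusted p = 0.0616 after length correction). JAKMIP1 was at -1.88 (edgeR adjusted p = 0.102). Of 8 tested genes around C6orf15 it alone was called, and after length correction TCF19, a cell-cycle gene, was too (0.90, edgeR adjusted p = 0.0391). Without that correction TCF19 was at 0.83, GTF2H4 at 0.73, PSORS1C1 at 0.43, CCHCR1 at 0.29, DDR1 at 0.02, VARS2 at -0.08 and CDSN at -0.46. CDSN, a skin adhesion gene next to C6orf15, had 10, 14 and 16 reads in neg and 0 and 14 in pos.

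The genes nearest to each of the 5 in pattern over the 5 libraries are given as a description, since pos and neg values chose the 5. Likeness was taken as the root mean square difference of log2 CPM, each set to its neg mean, over 5 libraries and among the 10869 tested genes with a mean of at least 5 CPM. JAKMIP2-AS1, C6orf15, CDCA3 and RARRES2 met that minimum only through their pos values. SPRYD4 was closest to JAKMIP2-AS1 (0.257 log2 units), then to GSTO1 (0.329) and NDUFA4 (0.340). JAKMIP2-AS1 was closest to SPRYD4, then to C6orf15 (0.335) and CDCA3 (0.382). C6orf15 was closest to CDCA3 (0.219), RARRES2 (0.260) and NDUFA4 (0.272). DPM3 lay 0.0398 log2 units from ATP5J2 (443 nt), 0.0469 from NDUFA2 (649 nt) and 0.0954 from RPS21 (358 nt), and BLOC1S1 lay 0.153 from ROMO1 (366 nt), 0.192 from ATP5J2 and 0.228 from DPM3. Reads of RPS21 may be shared with pseudogenes.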

How the data were processed

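The authors deposited a table of raw read counts by gene symbol. Per the labels' protocols, libraries came from the TruSeq Stranded mRNA kit and reads were aligned with STAR. Tools named in the submitters' processing notes are STAR 2.5.2b, CASAVA 1.8.2 and DESeq2 1.24.0. The build is hg19 in those notes and GRCh38 in the labels' protocols, and the sources used here give no counting settings. Coordinates and lengths are those of the canonical transcript in GENCODE 44, matched by symbol (97.5% of tested genes).

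Of 25435 rows, 92 spike-in rows were left out. Genes kept by filterByExpr (minimum count 10, total 15) were scaled by TMM and tested for pos against neg with edgeR 4.0.16 (glmQLFit and glmQLFTest, R 4.3.3) at an adjusted p of 0.05. SE is the log2 fold change over the square root of F, and log2 CPM used a prior count of 2. Length trends were lowess curves (span 0.3), removed as edgeR offsets. The edgeR and length steps were tested on simulated data. Intervals and floors cover counting error only, since reads carry no molecular identifiers. Alternatives were DESeq2 1.42.0, limma-voom (limma 3.58.1), other scalings, no filter, a replicate block, each library left out and length removal, and, after seeing the data, other transcript lengths.

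Members, gene lists and alternatives were chosen with earlier results of these data known. Named genes were the 5 members, MUC1, called genes of each list (at most 4, by p), every tested gene of lists under 14, 2 neighbours on each side and the 3 most similar genes per member. Others named are additional. No pair of libraries agreed within sampling noise (chi-square per degree of freedom 6.35 to 162).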

Additional observations from a re-analysis of the deposited data

How the results depend on the processing

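The 5 genes were higher in pos in all 65 values given by 13 alternatives, 49 of them within 1 SD of the value from all 5 libraries. All 5 genes already lay above every neg library in both pos libraries, so the kept direction is no added evidence. That SD, pooled within groups, ran from 0.19 log2 units for JAKMIP2-AS1 to 0.845 for BLOC1S1, for which it is a loose measure. With library size as the only scaling SPRYD4 was at 2.45 and JAKMIP2-AS1 at 2.48. With the length trend removed the values were 4.0 for SPRYD4, 1.91 for JAKMIP2-AS1, 1.85 for C6orf15, 1.58 for BLOC1S1 and 1.17 for DPM3. With SPRYD4 at its coding length and JAKMIP2-AS1 at its longest transcript, a choice made after seeing the data, SPRYD4 was at 1.68, JAKMIP2-AS1 at 2.90, the largest of the 5, C6orf15 at 1.85, BLOC1S1 at 1.58 and DPM3 at 1.17. Leaving out each library in turn gave 2.5 to 3.23 for SPRYD4, 2.72 to 3.06 for JAKMIP2-AS1, 2.03 to 3.22 for C6orf15, 1.73 to 3.80 for BLOC1S1 and 1.52 to 3.37 for DPM3, with the lowest value of each reached without pos replicate 3 and the highest without pos replicate 1. The 1251 genes called became 3037 with DESeq2, 606 with library size only and 0 to 8819 without 1 library, and the 18 called of 91 tested genes in the 7 lists became 0 to 63. Of the 18 list genes called with all 5 libraries, 5 were the picked genes. Another 6 were the listed ER stress genes, whose fall was known beforehand. Over all tested genes 9.20% were called, and the list count is no test against that share. The counts without a pos library rest on a lone library taken to vary like neg. Fitting the replicate number as a block left 87 genes and 5 list genes called. Same-numbered libraries deviated from their group means in opposite ways (r = -0.443 and -0.448 across genes), and the numbers were not taken to pair the libraries. With 2 pos libraries the deviations of the pair mirror each other, so these values are not separate checks and cannot exclude pairing. The cause of the changes in the number of genes called was not tested. At 19 to 35 reads in neg, the levels of C6orf15 and JAKMIP2-AS1 there are limited by depth.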
